A study of Mus musculus with 38 samples.

Results

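The glycolysis and pyruvate genes examined here are 34 of the 23481 genes in the bulk RNA-seq table, chosen by name for their place in the pathway. They comprise 2 glucose transporters (Slc2a1, Slc2a3), the enzymes from hexokinase to pyruvate kinase with their paralogs (Hk1, Hk2, Gpi1, Pfkl, Pfkm, Pfkp, Aldoa, Aldoc, Tpi1, Gapdh, Pgk1, Pgam1, Bpgm, Eno1, Eno2, Eno3, Pkm), the 4 enzymes that set the level of the activator of phosphofructokinase (Pfkfb1 to Pfkfb4), both subunits of lactate dehydrogenase (Ldha, Ldhb), the pyruvate dehydrogenase complex (Pdha1, Pdhb, Dlat, Dld) with 3 kinases that inhibit it (Pdk1, Pdk2, Pdk3), and 2 monocarboxylate transporters (Slc16a1, Slc16a3). All 34 had a row in every kind of file.

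Glycolysis turns glucose into pyruvate in the cytosol. Lactate dehydrogenase then reduces pyruvate to lactate, which leaves the cell through monocarboxylate transporters, or the pyruvate dehydrogenase complex feeds it into the mitochondrion as acetyl-CoA, unless pyruvate dehydrogenase kinases switch that complex off. Mouse embryonic stem cells (mESCs) in the naive state are known to use glycolysis and respiration side by side, and a shift towards glycolysis is known for the epiblast-like state that follows. Most steps have several paralogs that differ in kinetics, regulation and tissue, so which paralog a cell uses can change without any change in the pathway as a whole. Gapdh, the glyceraldehyde-3-phosphate dehydrogenase of the pathway, is also widely used as a reference gene.

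E14 mESCs, a mouse line, grew in 2i medium with LIF (2i/L: a MEK inhibitor, a GSK3 inhibitor, the cytokine LIF and extra insulin) and were then moved to N2B27 medium without these additions but with 0.25 µM all-trans retinoic acid (RA) for up to 96 h, so the effects of RA and of the change of medium cannot be told apart. The medium was renewed after 48 h, so after that hour effects of fresh medium and of time in RA cannot be told apart either. The 25 bulk libraries were 2 of mESCs, of which the first served as 0 h, 9 of whole cultures from 6 to 96 h, 2 each of ectoderm-like (PDGFRA-/CD24+) and XEN-like (extraembryonic endoderm-like, PDGFRA+/CD24-) cells sorted at 96 h, 4 PDGFRA- fractions at 48 h split by quartile of CD24 (Q1 to Q4), 3 PDGFRA- fractions at 72 h split by tercile of CD24 (T1 to T3), 1 PDGFRA+/CD24- fraction at 72 h, and 1 long-term culture each of sorted ectoderm-like (passage 5) and XEN-like cells (3 weeks). Both cultures were kept with EGF and FGF2. Single cells were measured at 9 time points by SCRB-seq, which counts molecules by unique molecular identifiers (UMIs), and at 4 by SMART-seq2, which reads whole transcripts; there was 1 sample per time point.

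The bulk libraries held 1063830 to 2459483 UMIs. Each UMI stands for 1 captured transcript end, so counts scaled to 1000000 UMIs per library (CPM) were compared between genes without correction for length. A library that has no partner gives a value with an interval for counting error only. In bulk samples, fewer cells of a type and less RNA per cell cannot be told apart. Sorted XEN-like cells held 12049 and 6664 CPM of the 11 XEN markers (such as Lama1, Gata6 and Sox17), against 485 and 1779 CPM in ectoderm-like cells and 281 and 197 CPM in mESCs. The 11 ectoderm markers (such as Pax6, Nes and Crabp1) summed to 3270 and 2803 CPM in ectoderm-like cells and to 611 and 323 CPM in XEN-like cells. In the ectoderm-like culture the XEN markers (2235 CPM) exceeded the ectoderm markers (1653 CPM), against its label. The 6 mesoderm markers summed to at most 41.8 CPM, in the ectoderm-like culture. The 12 pluripotency markers still summed to 6267 and 4524 CPM in sorted XEN-like cells.

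The 2 mESC libraries differed in these genes. At least 2-fold differences, among genes with 50 or more UMIs in the larger library, were found for 4 of 20 members, against 8.91% of all genes (4.58% higher in the second library, 4.33% lower), and all 4 were higher in the second library: Pfkl (33.1 against 8.31 CPM), Pgk1 (950.2 against 289 CPM), Pkm (1209 against 581 CPM) and Ldha (1077 against 419.5 CPM). Every ratio to 0 h in the time course rests on the first of them, whose levels of these 4 genes were the lower. With library sizes scaled by TMM, the default scaling of edgeR, 7 members were higher in the second library (5.74% of all genes higher, 3.48% lower), Pfkp, Tpi1 and Ldhb being the others. Between the 2 ectoderm-like libraries 3 of 21 members differed that much (8.22% of all genes, 2.28% higher and 5.94% lower in the second), Slc2a3 and Slc16a1 higher and Pdk3 lower in the second. Between the 2 XEN-like libraries 1 of 19 did (9.71%, 0.688% higher and 9.02% lower), Dlat being lower in the second, and with TMM Slc2a3 was also higher (1.1% of all genes higher, 6.25% lower).

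The promoters of the glucose transporter Slc2a1, of the phosphoglycerate kinase Pgk1 and of both lactate dehydrogenase genes are printed because the levels of these genes differed between libraries or lineages and because hypoxia-inducible factor, a known driver of glycolytic genes, binds a short core, ACGTG. Each is the 250 bases before the RefSeq start in mouse GRCm38.p6, 5′ to 3′ on the gene's strand, with ACGTG on either strand in capitals. Slc2a1 lies at chr4:119108495-119108744 on the plus strand, Pgk1 at chrX:106186850-106187099 on the plus strand, Ldha (the first of 2 listed starts) at chr7:46845554-46845803 on the plus strand, and Ldhb at chr6:142507958-142508207 on the minus strand.
Slc2a1: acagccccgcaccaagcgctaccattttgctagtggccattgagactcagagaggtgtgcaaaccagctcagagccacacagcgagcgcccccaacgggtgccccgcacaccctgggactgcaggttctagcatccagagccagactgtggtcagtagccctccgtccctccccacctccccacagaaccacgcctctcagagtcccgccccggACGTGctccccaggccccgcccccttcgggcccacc
Pgk1: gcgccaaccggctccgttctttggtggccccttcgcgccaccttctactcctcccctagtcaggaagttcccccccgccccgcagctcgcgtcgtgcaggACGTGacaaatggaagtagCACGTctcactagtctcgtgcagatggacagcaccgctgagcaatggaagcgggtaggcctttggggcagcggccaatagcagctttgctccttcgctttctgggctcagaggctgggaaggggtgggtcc
Ldha: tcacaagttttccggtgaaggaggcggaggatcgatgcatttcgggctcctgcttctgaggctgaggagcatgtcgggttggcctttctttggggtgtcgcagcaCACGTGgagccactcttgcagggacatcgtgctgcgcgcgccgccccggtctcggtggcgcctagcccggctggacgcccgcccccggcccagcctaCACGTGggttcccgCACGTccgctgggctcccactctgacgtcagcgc
Ldhb: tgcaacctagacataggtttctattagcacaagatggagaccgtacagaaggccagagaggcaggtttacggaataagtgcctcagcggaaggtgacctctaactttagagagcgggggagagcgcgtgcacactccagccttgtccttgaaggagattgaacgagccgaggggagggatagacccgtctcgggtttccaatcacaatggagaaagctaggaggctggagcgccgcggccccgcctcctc
Slc2a1 held 1 match, 36 bases before the start, Pgk1 held 2, and Ldha held 5, of which 2 pairs overlap as CACGTG, an E-box. Ldhb held none in this window. Promoters were listed for 33 of the 34 genes. Of their 52 starts, 19 (36.5%) held the core, against 16.6% of the 32851 starts of all genes, and CACGTG was in 11.5% against 6.02%. The GC content of these windows was also higher (58.4% against 53.2%), and its part in the difference was not tested. A match is a run of letters and not a measured binding site.

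**Figure D1:**
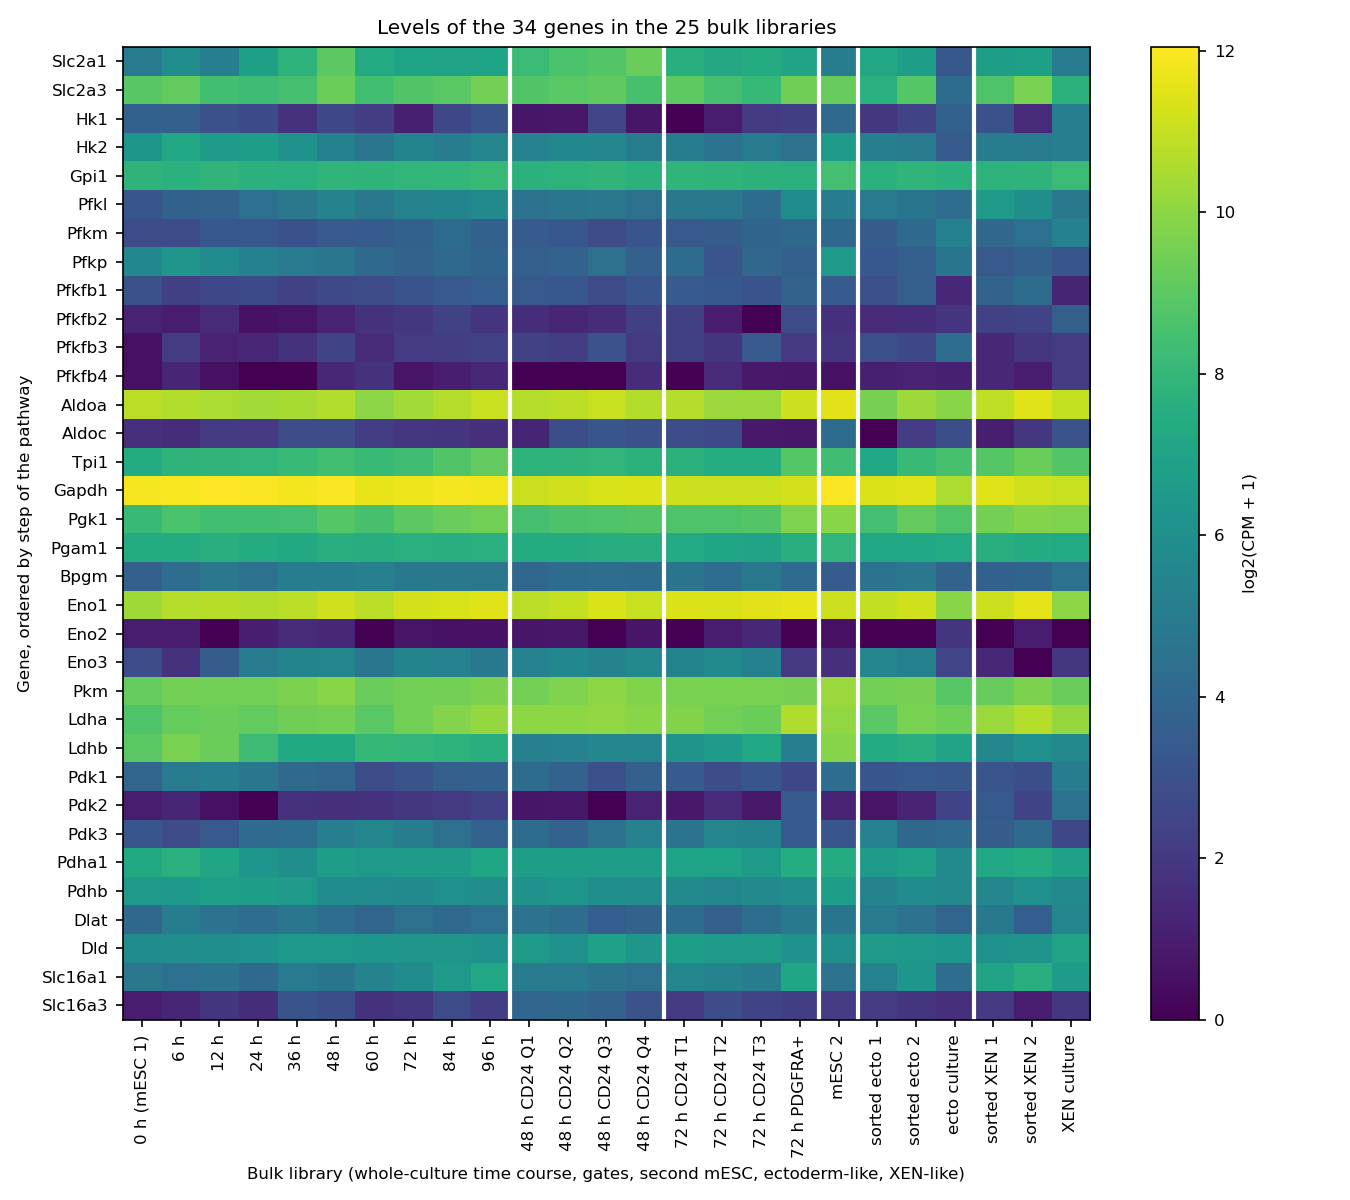
Levels of the 34 genes (rows, in pathway order) in the 25 bulk libraries (columns), as log2(CPM + 1) in colour. Aldoa, Gapdh and Eno1 are high in every library, whereas Slc2a1, Pfkp, Eno3, Ldhb and Slc16a1 change between columns.

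The 3 groups with 2 libraries (mESCs, sorted ectoderm-like and sorted XEN-like cells) were compared gene by gene. Of the 34 members, 27 had enough counts to be tested. In ectoderm-like cells against mESCs, 10 of 27 passed edgeR's quasi-likelihood test at an adjusted p (Benjamini-Hochberg over 8947 genes) of 0.05, 2 higher and 8 lower, where 19.1% of all genes passed (9.85% higher, 9.28% lower). In XEN-like cells against mESCs, 9 passed, 3 higher and 6 lower, against 22.8% of all genes (12.3% higher, 10.5% lower). These contrasts share the mESC libraries. In XEN-like against ectoderm-like cells, 5 passed, 3 higher and 2 lower, against 12.7% (6.99% higher, 5.74% lower). The median log2 fold change over the 27 members was -0.61, -0.20 and 0.31, beside 0.05, -0.06 and -0.06 over all genes tested. Scaling by library totals in place of TMM moved the median of all genes to 0.36, 0.15 and -0.16. The members called were then 5 higher and 6 lower in ectoderm-like cells, against 15.3% and 6.56% of all genes. They were 4 and 4 in XEN-like cells (14.9% and 7.86%), and 3 and 2 between the lineages (5.55% and 5.83%). For a single value, 2 libraries against 2 cannot give an exact two-sided permutation p below 0.33, so the tests rest on the spread shared across genes. The study's methods call the libraries of each of these groups biological replicates, whereas the labels say so for the sorted cells and not for mESCs. The labels also name sorting for both lineages and not for mESCs. The contrasts with mESCs alone therefore cannot tell a change with lineage from an effect of sorting or handling.

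The glucose transporter Slc2a1 rose in both lineages. Its level was 30.2 and 32.2 CPM in mESCs, 143 and 108 CPM in ectoderm-like cells and 104 and 113 CPM in XEN-like cells. Both lineages lay above mESCs in every library and overlapped each other. The log2 fold change was 1.69 ± 0.29 (SE, n = 2 per group; edgeR adjusted p = 0.00204) in ectoderm-like and 1.59 ± 0.29 (edgeR adjusted p = 0.00232) in XEN-like cells. Its partner Slc2a3, the high-affinity transporter, was far more abundant in mESCs at 477 and 606 CPM. It stood at 202 and 461 CPM in ectoderm-like and at 418 and 788 CPM in XEN-like cells and passed no test, with the pair of libraries of each lineage differing more than the lineages did from mESCs.

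The hexokinases, which trap glucose in the cell, fell. Hk2 was at 80.9 and 94.0 CPM in mESCs, 36.1 and 29.7 CPM in ectoderm-like and 32.5 and 29.2 CPM in XEN-like cells, without overlap between mESCs and either lineage. Its log2 fold change was -1.72 ± 0.30 (SE; edgeR adjusted p = 0.00206) and -1.71 ± 0.30 (edgeR adjusted p = 0.00187). Hk1 was lower than Hk2 in these 6 libraries, at 12.2 and 17 CPM in mESCs, 2.78 and 4.52 CPM in ectoderm-like and 7.11 and 1.82 CPM in XEN-like cells. It passed in both contrasts (log2 fold change -2.31 ± 0.57, edgeR adjusted p = 0.0145, and -1.79 ± 0.55, edgeR adjusted p = 0.0356), but the call in XEN-like cells did not hold without the second mESC library (adjusted p = 0.155), either ectoderm-like library (0.0545 and 0.0602) or the second XEN-like library (0.154), nor with DESeq2 (0.128), with library totals (0.0806) or with only the 2 groups compared in the fit (0.0517). That in ectoderm-like cells did not hold without the second mESC (0.0687), the first ectoderm-like (0.141) or the second ectoderm-like library (0.0617).

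Phosphofructokinase, the committed step of the pathway, changed its subunits. The platelet-type subunit Pfkp was at 47.7 and 91 CPM in mESCs, 8.89 and 11.6 CPM in ectoderm-like and 9.14 and 11.8 CPM in XEN-like cells. The lineages overlapped each other and lay below both mESC libraries, with log2 fold changes of -3.08 ± 0.43 (SE; edgeR adjusted p = 0.000627) and -2.97 ± 0.44 (edgeR adjusted p = 0.000696). The liver-type subunit Pfkl was at 8.31 and 33.1 CPM in mESCs, 29.5 and 24.6 CPM in ectoderm-like and 86.8 and 62.9 CPM in XEN-like cells. It rose in XEN-like cells (log2 fold change 1.62 ± 0.50, edgeR adjusted p = 0.0373), a call that did not hold without the first mESC (adjusted p = 0.126), the second ectoderm-like (0.0531), the first XEN-like (0.120) or the second XEN-like library (0.0721). Between the lineages the difference of Pfkl was 1.57 ± 0.50 (edgeR adjusted p = 0.0644). The muscle-type subunit Pfkm was at 5.69 and 15.2 CPM in mESCs and at 10.6 to 20.1 CPM in the 4 sorted libraries and passed no test.

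In the middle of the pathway the lineages differed. Aldolase A (Aldoa) was at 1788 and 2900 CPM in mESCs, 769.7 and 1239 CPM in ectoderm-like and 1894 and 2783 CPM in XEN-like cells, so that both ectoderm-like libraries lay below all others. It fell in ectoderm-like cells against mESCs (log2 fold change -1.53 ± 0.36, edgeR adjusted p = 0.0119) and was higher in XEN-like than in ectoderm-like cells (1.34 ± 0.36, edgeR adjusted p = 0.0322). Triosephosphate isomerase (Tpi1) was at 169 and 323 CPM in mESCs, 150.1 and 274 CPM in ectoderm-like and 465 and 638 CPM in XEN-like cells, and it differed between the lineages (1.49 ± 0.40, edgeR adjusted p = 0.0322). The second ectoderm-like library, which held more XEN marker RNA (1779 against 485 CPM), also had the higher Aldoa, Tpi1, Slc2a3 and Slc16a1 of the pair, and its part in these results was not tested. Without the first ectoderm-like library the differences between the lineages missed the threshold (adjusted p = 0.261 for Aldoa and 0.267 for Tpi1), as they did without the second XEN-like library (0.209 and 0.193). The fall of Aldoa in ectoderm-like cells missed it without the first ectoderm-like (0.113) or the second mESC library (0.0710).

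The enolases gave the widest difference. Eno3, the muscle-type enolase, was at 5.69 and 2.18 CPM in mESCs, 46.1 and 38.8 CPM in ectoderm-like and 1.52 and 0 CPM in XEN-like cells. Both ectoderm-like libraries lay far above the other 4, with a log2 fold change against mESCs of 3.11 ± 0.50 (SE; edgeR adjusted p = 0.00134) and a fitted difference between XEN-like and ectoderm-like cells of -5.29 ± 0.66 (edgeR adjusted p = 0.00117), which depends on the prior count since 1 XEN-like library had no UMI. The 5 muscle markers (Myog, Myod1, Ckm, Acta1, Des) summed to 13.3 and 40.7 CPM in ectoderm-like cells and 4.57 and 11.8 CPM in XEN-like cells, and 2 of the 5 were at 0 in each ectoderm-like library; their part in the level of Eno3 was not tested. Eno1, the general enolase, was far more abundant (1306 and 2227 CPM in mESCs, 1966 to 3042 CPM in the sorted libraries) and passed no test. Its counts are uncertain, because Gm5506 (also listed as Eno1b), 99.5% identical over 1736 aligned bases, held 0.777 to 0.853 UMIs for each UMI of Eno1 in all 25 libraries. The neuronal enolase Eno2 was at most 2.68 CPM in any library.

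**Figure D2:**
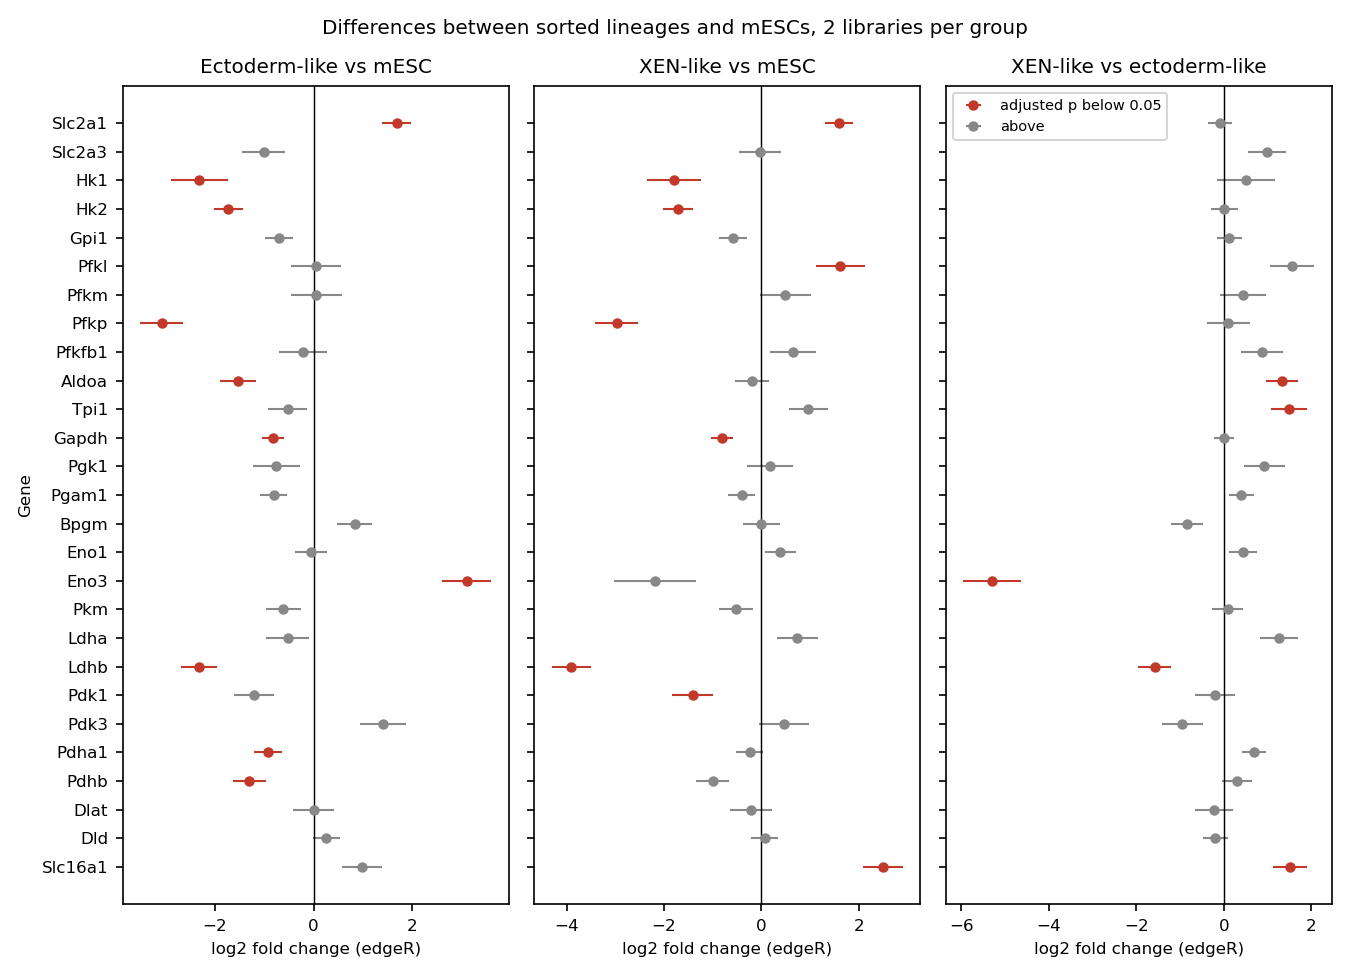
Log2 fold changes (points) with standard errors (bars) of the 27 tested members from edgeR, in ectoderm-like against mESCs, XEN-like against mESCs and XEN-like against ectoderm-like cells, 2 libraries per group. Ldhb and Pfkp lie far to the left against mESCs in both lineages, and Eno3 lies at 3.11 in ectoderm-like cells and at -5.29 between the lineages.

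At the branch of pyruvate, the lactate dehydrogenase subunit Ldhb fell and Ldha did not pass the test. Ldhb was at 491 and 928 CPM in mESCs, 161 and 192 CPM in ectoderm-like and 44.7 and 65.6 CPM in XEN-like cells, 3 groups without overlap. The log2 fold change was -2.33 ± 0.37 (SE; edgeR adjusted p = 0.00123) in ectoderm-like and -3.90 ± 0.40 (edgeR adjusted p = 9.76e-05) in XEN-like cells, and the difference between the lineages was -1.58 ± 0.38 (edgeR adjusted p = 0.0189). That last difference missed the threshold without the first ectoderm-like (adjusted p = 0.0689), the second ectoderm-like (0.111) or the first XEN-like library (0.167). Ldha was at 419.5 and 1077 CPM in mESCs, 500.2 and 796 CPM in ectoderm-like and 1204 and 1675 CPM in XEN-like cells. Its difference between the lineages, 1.27 ± 0.43, had an edgeR adjusted p of 0.0818.

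The monocarboxylate transporter Slc16a1, which carries lactate and pyruvate, rose in XEN-like cells. It was at 26.7 and 22.2 CPM in mESCs, 38.9 and 80.1 CPM in ectoderm-like and 131 and 185 CPM in XEN-like cells, again without overlap. The log2 fold change in XEN-like cells was 2.50 ± 0.41 (SE; edgeR adjusted p = 0.00123) against mESCs and 1.52 ± 0.39 (edgeR adjusted p = 0.0259) against ectoderm-like cells, the latter not held without the first ectoderm-like (adjusted p = 0.226) or the second XEN-like library (0.186). In ectoderm-like cells against mESCs it was 0.98 ± 0.40 (edgeR adjusted p = 0.116).

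The pyruvate dehydrogenase genes moved less. Pdha1 and Pdhb, which encode the subunits of its first enzyme, fell in ectoderm-like cells (log2 fold change -0.92 ± 0.28, edgeR adjusted p = 0.0379, and -1.31 ± 0.33, edgeR adjusted p = 0.0178). Pdha1 was at 157 and 168 CPM in mESCs and at 94.5 and 118 CPM in ectoderm-like cells, and Pdhb was at 87.9 and 104 CPM and at 41.1 and 54.9 CPM. Both groups were apart in both genes, yet Pdha1 missed the threshold without either mESC library (adjusted p = 0.0698 and 0.131), either ectoderm-like library (0.256 and 0.0726) or the first XEN-like library (0.0537), and with library totals (log2 fold change -0.61, adjusted p = 0.104). Pdhb missed it without the second mESC (0.0677) or the first ectoderm-like library (0.158). The kinase Pdk1 fell in XEN-like cells, from 14.4 and 19.2 CPM to 8.13 and 6.38 CPM (log2 fold change -1.41 ± 0.42, edgeR adjusted p = 0.0323), and this call was lost without the second mESC library (adjusted p = 0.157) or without any one of the 4 sorted libraries (0.0514 to 0.137), with DESeq2 (0.160), with library totals (0.0674) and with only the 2 groups compared in the fit (0.0537). The kinase Pdk3 was at 8.31 and 8.27 CPM in mESCs and at 39.5 and 15.5 CPM in ectoderm-like cells (1.41 ± 0.47, edgeR adjusted p = 0.0595). Dlat and Dld, the other subunits of the complex, passed no test.

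Gapdh was lower in both sorted lineages than in mESCs. It was at 3774 and 4028 CPM in mESCs, 2689 and 2769 CPM in ectoderm-like and 2802 and 2321 CPM in XEN-like cells, and the mESC libraries lay above the other 4. The whole culture at 96 h, at 3575 CPM, also lay above these 4 sorted libraries. A change with lineage and an effect of sorting or handling therefore cannot be told apart for Gapdh. This whole culture also lay above the sorted libraries for Hk1, Hk2, Pfkp, Ldhb and Pdk1. The part of sorting in the falls of these genes was not tested. The log2 fold change of Gapdh was -0.83 ± 0.23 (SE; edgeR adjusted p = 0.0238) and -0.82 ± 0.23 (edgeR adjusted p = 0.0218). Leaving out any one library of the groups compared took both calls past the threshold (adjusted p = 0.0632, 0.125, 0.147 and 0.0829 in ectoderm-like cells and 0.0585, 0.122, 0.0972 and 0.0793 in XEN-like cells, in the order of mESC 1, mESC 2 and the 2 sorted libraries). With library totals the fall in ectoderm-like cells was -0.51 (adjusted p = 0.0549). The other tested members, Gpi1, Pgk1, Pgam1, Bpgm, Pkm and Pfkfb1, passed in no contrast. Pkm, pyruvate kinase, was at 581 and 1209 CPM in mESCs and at 614 to 820.3 CPM in the sorted libraries, and the counts do not separate its splice forms.

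Within the time course, each time after 0 h was 1 library, so ratios carry counting intervals and no test. At 96 h against 0 h, 11 of 21 members with 50 or more UMIs differed at least 2-fold, 9 higher and 2 lower, against 30.3% of all genes (22% higher, 8.28% lower). With TMM they were 6 higher and 3 lower (15.3% and 13.4% of all genes), Pgk1, Bpgm and Eno1 no longer past 2-fold and Hk2 lower. With the second mESC library as 0 h, 7 of 22 did, against 32.8% (23.8% higher, 9.05% lower): Slc2a1, Bpgm, Eno3 and Slc16a1 higher and Hk2, Pfkp and Ldhb lower, and with TMM 3 were higher and 5 lower (14.6% and 15.6%). Slc2a1 had its peak at 48 h. It stood at 30.2 CPM at 0 h, 58.7 at 6 h, 35.7 at 12 h, 113 at 24 h, 220.3 at 36 h, 521 at 48 h, 163 at 60 h, and 123 to 125 CPM from 72 to 96 h. The level at 48 h was 17.3 times that at 0 h (95% interval for the ratio of counts 13.5 to 22.3). The medium was renewed after 48 h, and its part in the lower levels from 60 h on was not tested.

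Ldhb had a different course, with 491 CPM at 0 h, 796 at 6 h, 655 at 12 h, 304 at 24 h, 161 at 36 h, 157 at 48 h, 257 at 60 h, 248 at 72 h, 223 at 84 h and 195 CPM at 96 h. Its ratio at 96 h to 0 h was 0.397 (0.353 to 0.447). Pfkp went from 47.7 CPM at 0 h and 75.8 CPM at 6 h to 13.8 CPM at 96 h (ratio 0.290, 0.183 to 0.446), while Pfkl went from 8.31 to 51.2 CPM (6.17, 3.75 to 10.7). Eno3 was high early: its level was 2.44 CPM at 6 h but already 30.9 CPM at 24 h, and 42.4 CPM at 36 h. Slc16a1 came late, with 16.4 to 29.7 CPM up to 48 h, 40.8 CPM at 60 h, 54.5 at 72 h, 90.2 at 84 h and 146 CPM at 96 h. The summed XEN markers of the same libraries were 517 CPM at 48 h, 3445 at 72 h and 12297 CPM at 96 h, and their part in the late levels of Slc16a1 was not tested. Pdk3 peaked at 44.4 CPM at 60 h, against 8.31 CPM at 0 h and 12.8 CPM at 96 h, whereas Pdk1 was highest at 12 h (34.8 CPM) and lowest at 60 h (6.00 CPM).

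Step by step, 3 of 20 members differed at least 2-fold between 24 and 0 h (12% of all genes did, 6.73% higher and 5.23% lower): Slc2a1 (ratio 3.73) and Eno3 (5.43) higher and Pdha1 (0.497) lower. Set against the second mESC library, 8 of 22 did (19.9%, 11.4% higher and 8.49% lower), with Slc2a1 and Eno3 higher and Slc2a3, Pfkp, Aldoa, Pgk1, Ldhb and Pdha1 lower. Between 48 and 24 h, 5 of 23 did (13% of all genes, 8.58% higher and 4.42% lower): Slc2a1 (4.63), Slc2a3 (2.17), Pfkl (2.04) and Pdk3 (2.01) higher, and Hk2 (0.367) lower. With TMM 1 was higher there (Slc2a1) and 3 were lower (Hk2, Ldhb and Pdhb), against 6.99% and 5.71% of all genes. Between 96 and 48 h, 3 of 22 did (16.7% of all genes, 9.95% higher and 6.76% lower): Slc16a1 (5.87) higher, and Slc2a1 (0.240) and Pdk3 (0.366) lower. The counts of 3 against the first mESC library and against 48 h lie close to the share of all genes.

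**Figure D3:**
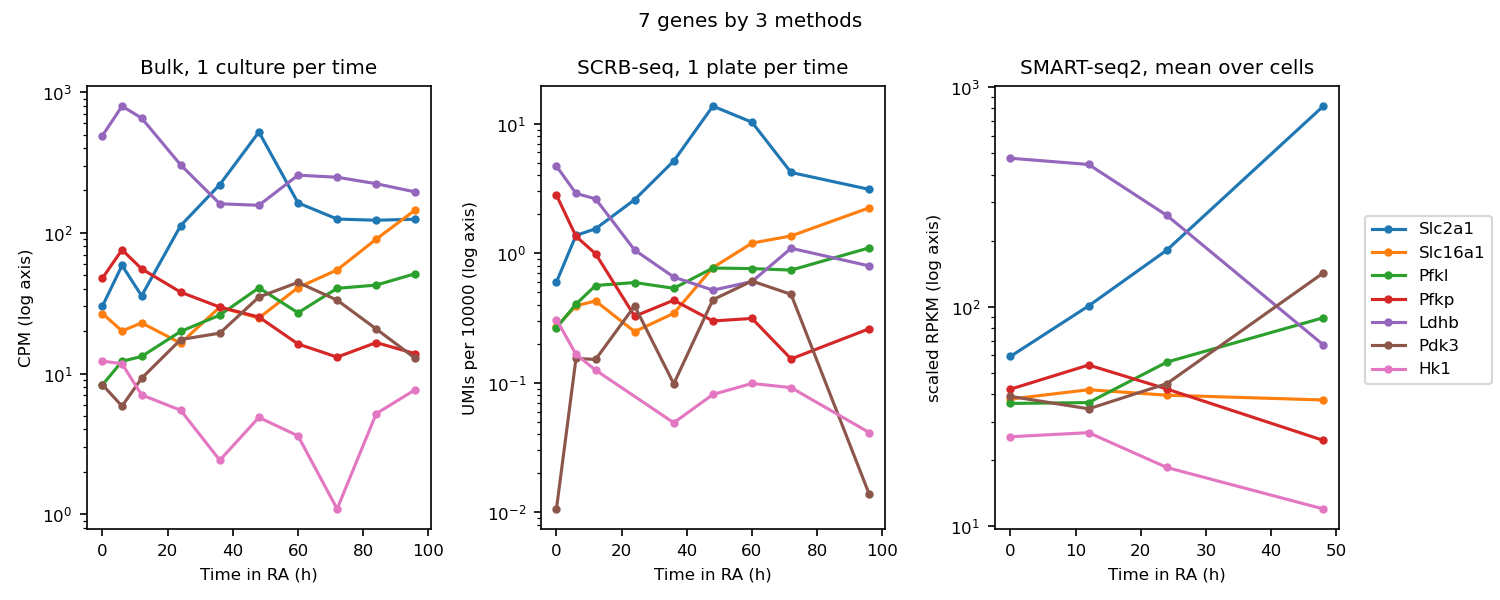
Levels of 7 genes against time in RA in bulk libraries (CPM), SCRB-seq plates (UMIs per 10000) and SMART-seq2 cells (mean scaled RPKM), each on a log axis, with 1 sample per point. Slc2a1 is highest at 48 h in bulk and in SCRB-seq, and in SMART-seq2 at 48 h, the last time measured there. In bulk, Ldhb goes from 491 CPM at 0 h to 796 CPM at 6 h and then to lower values.

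Single cells were summed or averaged per time point and read as 1 sample each. SCRB-seq gave 137 to 335 cells per time point (2448 of 3456 wells, those with over 2000 UMIs), at a median of 3560 to 5069 UMIs per cell, and the 9 plates share the same 384 well names. Slc2a1 was at 0.600 UMIs per 10000 at 0 h, 1.37 at 6 h, 1.54 at 12 h, 2.59 at 24 h, 5.16 at 36 h, 13.7 at 48 h, 10.3 at 60 h, 4.20 at 72 h and 3.11 at 96 h, so 48 h was again the highest point. Ldhb was at 4.71 UMIs per 10000 at 0 h, 0.519 at 48 h and 0.798 at 96 h, and Pfkp at 2.81, 0.300 and 0.261. Pfkl was at 0.265, 0.768 and 1.10, and Slc16a1 at 0.271, 0.775 and 2.24. These 5 lay on the same side of 0 h at 96 h as in bulk, but not every member did. Slc2a3 was higher at 96 h than at 0 h in bulk (ratio 1.55, 1.43 to 1.68). In SCRB-seq it was lower, with 1324 of 1884093 UMIs at 0 h and 277 of 726759 UMIs at 96 h. Pdk3 was at 0.610 UMIs per 10000 at 60 h but rested on 2 UMIs at 0 h and 1 UMI at 96 h. Eno3 was at 0.154 (29 UMIs) at 0 h and at no more than 0.315 (77 UMIs), at 36 h. At 96 h it had 2 UMIs and lay below 0 h, whereas in bulk it lay above 0 h (ratio 4.96).

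SMART-seq2 gave 82, 86, 89 and 82 cells at 0, 12, 24 and 48 h, with values in RPKM (reads scaled to transcript length and to the reads of the cell), scaled here to the same total per cell. The mean of Slc2a1 was 59.4, 101, 181 and 819 RPKM at the 4 times. For Ldhb it was 474, 444, 261 and 67.1 RPKM, and for Ldha 767, 613, 521 and 960.2 RPKM. Pfkl went from 36.3 to 89.1 RPKM between 0 and 48 h, Pfkp from 42.1 to 24.6 RPKM, Pdk3 from 39.1 to 142 RPKM and Eno3 from 10.2 to 48.0 RPKM. Slc16a1, high only later in bulk, stood at 38 RPKM at 0 h and 37.6 RPKM at 48 h, while Slc16a3 stood at 7.06 and 35.1 RPKM.

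Paralog shares restate these levels as the part of a family's UMIs held by one gene. Slc2a1 held 5.95% and 5.04% of the glucose transporter UMIs in the mESC libraries, 44.3% at 48 h and 14.5% at 96 h, the rest being Slc2a3. In SCRB-seq it held more, 78.1% at 48 h and 44.9% at 96 h. In sorted cells it held 41.4% and 19% in ectoderm-like and 19.9% and 12.5% in XEN-like libraries, so the ectoderm-like pair differed from each other as much as from the XEN-like pair. Pfkp held 77.3% and 65.3% of phosphofructokinase UMIs in mESCs and 17.9% at 96 h, and Pfkl took 13.5% and 23.8%, then 66.2%. Pfkl held 60.2% and 46.3% in ectoderm-like and 78.4% and 66.4% in XEN-like libraries. In the long-term cultures Pfkm was the largest part, with 46.7% beside 30.3% of Pfkp and 23% of Pfkl in the ectoderm-like culture, and 51.4% beside 37.4% of Pfkl in the XEN-like culture. Ldhb held 53.9% and 46.3% of lactate dehydrogenase UMIs in mESCs, 17.5% at 48 h, 34.2% at 60 h and 14.8% at 96 h. In sorted cells Ldhb held 24.4% and 19.4% in ectoderm-like and 3.58% and 3.77% in XEN-like libraries. Among the kinases, Pdk1 held 80.5% at 6 h and 11.4% at 60 h, where Pdk3 held 84.1%. Pdk2, at most 4.10 CPM in whole cultures, held 33.9% and 16.7% of kinase UMIs in XEN-like libraries, at 9.65 and 4.56 CPM, and had too few counts to be tested. Starting shares differed by method. At 0 h Pfkp held 79.9% of its family in SCRB-seq and 44.8% of its RPKM in SMART-seq2, and Ldhb 64.4% and 38.2%. At 48 h Pfkl held 69.1% and 70.9%, and Ldhb 12.2% and 6.53%. In SMART-seq2 Pdk3 held 50.0% and Pdk1 41.6% at 0 h, against 84.1% and 13.1% at 48 h.

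**Figure D4:**
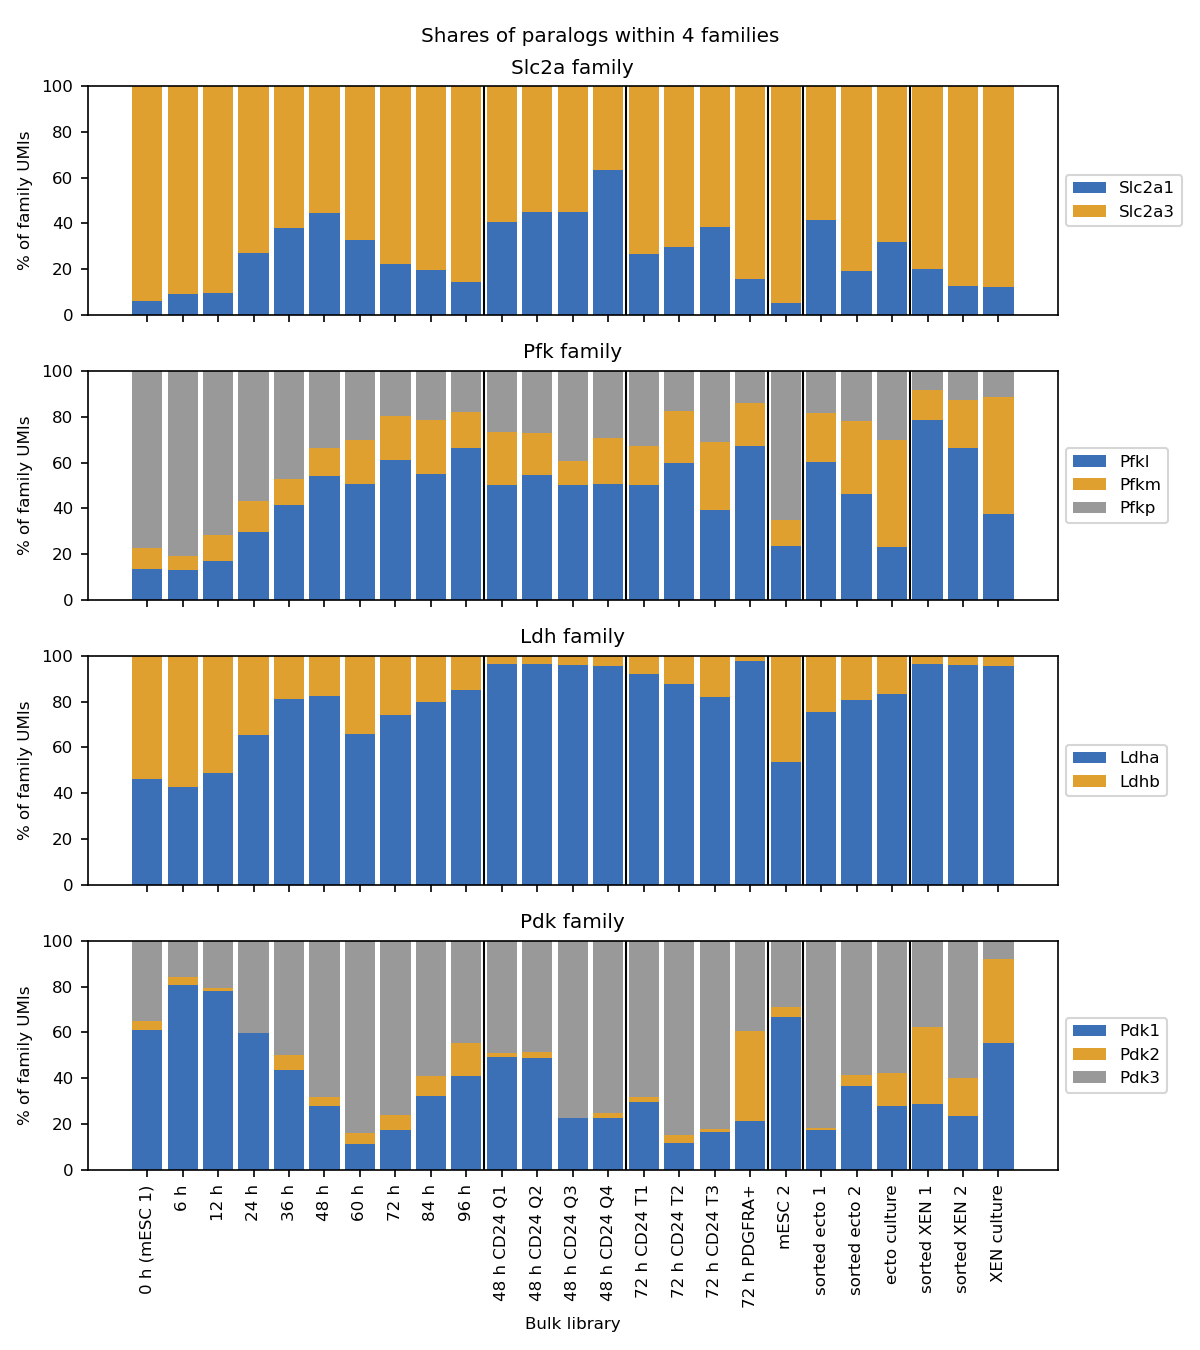
Share of the UMIs of 4 paralog families (stacked bars, % of family) in each bulk library. In the lactate dehydrogenase family Ldhb goes from 53.9% in the first mESC library to under 4% in sorted XEN-like cells, and in the phosphofructokinase family Pfkp is the largest part in mESCs, Pfkl in the whole culture at 96 h and in cells sorted at 96 h, and Pfkm in the long-term cultures.

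The CD24 and PDGFRA fractions showed where within a culture these genes were high. Among PDGFRA- cells at 48 h, Slc2a1 was at 299.6 CPM in Q1, 399 in Q2, 452 in Q3 and 635 CPM in Q4, the highest CD24 quartile. The ratio of Q4 to Q1 was 2.12 (95% interval 1.89 to 2.38), and Pdk3, at 18.1 and 39.8 CPM, was the other of 2 members among 18 that differed at least 2-fold (5.1% of all genes did, 2.1% higher and 3% lower). The summed ectoderm markers were 885 CPM in Q1 and 1560.2 CPM in Q4, and the pluripotency markers 6664 and 4292 CPM. At 72 h, 0 of 18 members differed at least 2-fold between T3 and T1 (10.1% of all genes, 2.19% higher and 7.95% lower). Slc2a3 was nearest at 269 against 529.8 CPM (ratio 0.507), followed by Ldhb, at 74.6 CPM in T1, 98.8 in T2 and 144 CPM in T3.

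PDGFRA+ cells at 72 h differed from the PDGFRA- fractions summed in 6 of 18 members, against 23% of all genes (11.6% higher, 11.4% lower). Slc16a1 was at 138 CPM in PDGFRA+ cells and at 33.8 to 45.1 CPM in the 3 PDGFRA- fractions (ratio 3.48, 95% interval 2.79 to 4.34). Ldha was at 1569.8 CPM against 656 to 857 CPM, Tpi1 at 469.6 against 175 to 213 CPM, and Pfkl at 55.9 against 18.4 to 27.3 CPM. In the other direction, Eno3 was at 2.94 CPM against 38.4 to 52 CPM (0.0667, 0.018 to 0.174) and Ldhb at 34.5 against 74.6 to 144 CPM (0.326). These 6 genes were picked for their difference here. In each of them the PDGFRA+ library lay on the side on which sorted XEN-like cells lay from ectoderm-like cells at 96 h.

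In Ldhb and Gapdh the sorted fractions stood apart from whole cultures of the same hour. At 48 h the 4 fractions had 36.8 to 46.1 CPM of Ldhb, against 157 CPM in the whole culture, and at 72 h the 3 PDGFRA- fractions and the PDGFRA+ fraction had 34.5 to 144 CPM against 248 CPM. Ldhb was the only member that differed at least 2-fold from the whole culture at 48 h (1 of 22, 13.6% of all genes, 4.48% higher and 9.17% lower) and, for the summed PDGFRA- fractions, at 72 h (1 of 21, 9.73%, of which 3.97% higher and 5.75% lower). Both counts lie below the share of all genes. Gapdh also differed, at 2155 to 2675 CPM in the 48 h fractions against 4027 CPM. Sorting and any difference in handling between these libraries cannot be told apart here.

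Of the long-term cultures, the ectoderm-like one had little of either glucose transporter. Slc2a1 was at 8.57 CPM, against 143 and 108 CPM in freshly sorted cells, and Slc2a3 was at 18.2 CPM, against 202 and 461 CPM. In all, 8 of 19 members differed at least 2-fold from the sorted cells (29% of all genes, 17.6% higher and 11.4% lower): Pfkm was higher, at 38 CPM, and Hk2, Eno1, Eno3, Pdha1 and Slc16a1 were lower beside both transporters. Eno3 was at 4.82 CPM, against 46.1 and 38.8 CPM. In the XEN-like culture, 7 of 21 differed (42.5% of all genes, 22.3% higher and 20.2% lower). Hk1 was at 35.2 CPM against 7.11 and 1.82 CPM in sorted cells, its highest level in any library, and Pfkm and Dlat were also higher. Slc2a1 (29.7 CPM), Slc2a3 (210.4 CPM), Pfkl (27.6 CPM) and Eno1 (1015 CPM) were lower there. Between the cultures, 8 of 19 members differed at least 2-fold (44.4% of all genes, 19.5% higher and 24.9% lower), among them Slc2a3 (ratio of XEN-like to ectoderm-like 11.6) and Slc16a1 (101 against 18.7 CPM, ratio 5.38). The last 2 counts lie at or below the share of all genes. Each culture was 1 library, and growth in EGF and FGF2 and the time since sorting cannot be told apart.

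All 34 genes together held about 1% of UMIs. Their share was 1.03% in the first and 1.56% in the second mESC library, so the mESC libraries lay further apart than the lowest and the highest of the later times, 0.935% at 60 h and 1.39% at 96 h. In sorted ectoderm-like cells it was 0.850% and 1.04%, in XEN-like cells 1.16% and 1.42%, and in the cultures 0.627% (ectoderm-like) and 0.959% (XEN-like). The group means were 1.29% ± 0.375 (SD, n = 2) in mESCs, 0.946% ± 0.135 over the ectoderm-like pair and 1.29% ± 0.187 over the XEN-like pair, with overlap between all groups except the 2 lineages. Gapdh alone held 16.3% to 38.3% of the members' UMIs. In SCRB-seq the share ran from 0.670% at 0 h to 0.789% at 48 h and was 0.697% at 96 h. In SMART-seq2 the members held 0.775%, 0.696%, 0.634% and 0.861% of the summed RPKM at 0, 12, 24 and 48 h.

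**Figure D5:**
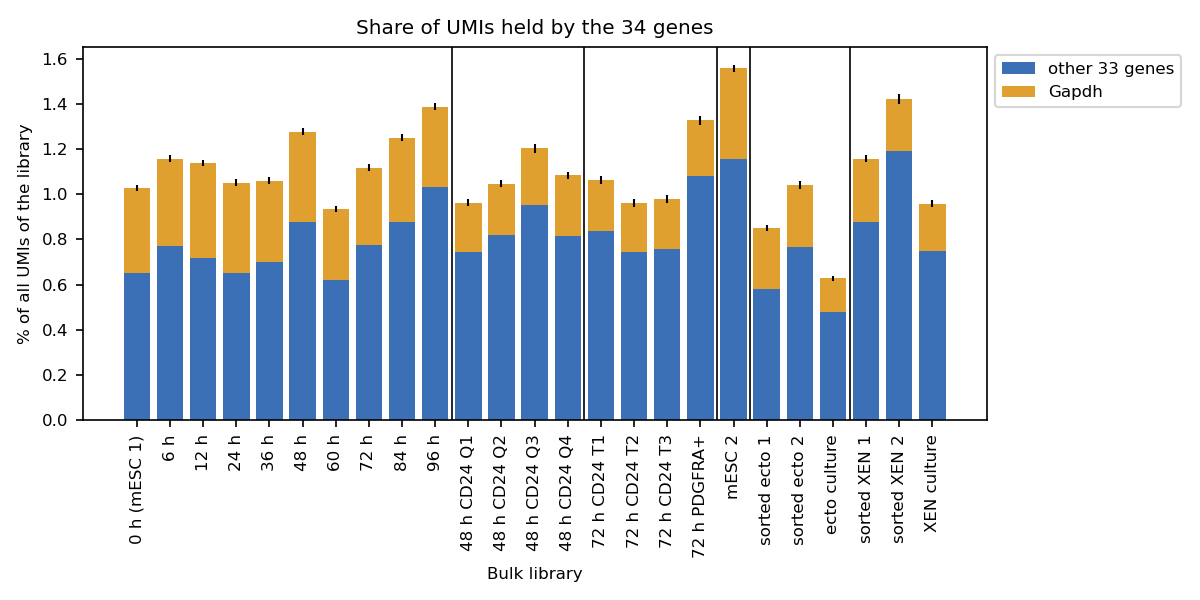
Share of all UMIs of each bulk library held by the 34 genes (stacked bars, %), with Gapdh apart from the other 33. The first and second mESC libraries stand at 1.03% and 1.56%, and the ectoderm-like culture is lowest at 0.627%.

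As a reference gene, Gapdh varied little along the time course and more beyond it. Over the 10 whole-culture libraries from 0 to 96 h it ran from 3166 to 4227 CPM (coefficient of variation 8.47%), a ratio of highest to lowest of 1.34. Over all 25 libraries it ran from 1494 CPM in the ectoderm-like culture to 4227 CPM at 12 h, a ratio of 2.83 (26.6%). Ppia, another gene used for this purpose, had a ratio of 1.11 (coefficient of variation 3.57%) along the time course and 2.37 (12.7%) over all libraries. For Rplp0 these were 1.34 (8.86%) and 2.42 (14.9%), and for Actb 1.69 (15.7%) and 2.50 (24.6%). Of the 9 other reference genes tested, 0 passed with edgeR in any of the 3 contrasts; at an unadjusted p under 0.05 there were 0 in ectoderm-like cells and 1, Actb, in each of the other contrasts, and DESeq2 called 1, in XEN-like cells against mESCs. The sorted fractions at 48 and 72 h, the sorted lineages and the cultures were all at or below 2802 CPM of Gapdh, so levels expressed relative to Gapdh are higher in these libraries than levels relative to all UMIs. In SMART-seq2 Gapdh was far from the top of the pathway, at 111 to 135 scaled RPKM, whereas Ldha was at 521 to 960.2. The cause of this difference from bulk was not tested.

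The members not yet described were low. Pfkfb1, the most abundant of its family in most bulk libraries, ran from 3.91 to 18.2 CPM outside the cultures, with its highest value in the second XEN-like library, and was at 1.61 and 1.38 CPM in the cultures. The other methods differed: at 0 h Pfkfb2 held 66.7% of the family in SCRB-seq and Pfkfb1 13.8%. In SMART-seq2 these were 39.3% and 36.9% at 0 h and 40.1% and 21.7% at 48 h. At 24 h Pfkfb1 was ahead in both methods (45.9% in SCRB-seq, 35.2% in SMART-seq2). Pfkfb3 was at most 9.21 CPM except in the ectoderm-like culture, where it was at 18.7 CPM. Pfkfb2 was highest in the XEN-like culture (11.7 CPM) and Pfkfb4 was at most 3.45 CPM. Aldoc, the brain aldolase, was at 18.3 CPM in the second mESC library and at most 8.46 CPM elsewhere. Slc16a3, the lactate exporter of strongly glycolytic cells, was at 14, 15.7, 13.2 and 7.58 CPM in Q1 to Q4 at 48 h and at most 7.87 CPM in all other libraries. With Pdk2 and Eno2, these are the 7 members below the count needed for a test, apart from Pfkfb1, which was tested.

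Genes around the pathway were listed as a comparison. Of 25 other pathway genes (the pentose phosphate branch, pyruvate entry and its regulators, gluconeogenesis and known regulators of the pathway), 19 were tested. Of all genes tested, 19.1% passed in ectoderm-like cells against mESCs (9.85% higher, 9.28% lower) and 22.8% in XEN-like cells (12.3% and 10.5%). Between the lineages 12.7% passed (6.99% and 5.74%). The counts of this list in the last 2 contrasts lie close to these shares. In ectoderm-like cells 2 rose (Lin28a and Lin28b) and 5 fell, among them Mpc1, a subunit of the mitochondrial pyruvate carrier (log2 fold change -1.90, edgeR adjusted p = 0.00251), Pdp2, a phosphatase that reactivates pyruvate dehydrogenase (-2.41, edgeR adjusted p = 0.00412), and Taldo1, transaldolase (-0.95, edgeR adjusted p = 0.0176). In XEN-like cells 3 rose, including Bsg, the chaperone of Slc16a1 at the membrane (1.02, edgeR adjusted p = 0.0249), and 2 fell, including Pdp2 (-1.73, edgeR adjusted p = 0.0174). Between the lineages 0 were higher and 2 were lower in XEN-like cells (Lin28b and Myc) with edgeR, 4 were higher at an unadjusted p under 0.05, and DESeq2 also called 0 higher. The median log2 fold changes of this list were -0.27 in XEN-like cells against mESCs and 0.35 between the lineages.

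Of 15 targets of hypoxia-inducible factor outside glycolysis, 12 were tested. The shares of all genes that passed were 19.1% in ectoderm-like cells (9.85% higher, 9.28% lower) and 22.8% in XEN-like cells (12.3% and 10.5%). Between the lineages the share was 12.7% (6.99% and 5.74%). In ectoderm-like cells 1 rose (P4ha2) and 1 fell (Kdm3a). In XEN-like cells 4 rose (Egln1, Ndrg1, P4ha1 and P4ha2) and 2 fell (Ddit4 and Kdm3a). Between the lineages P4ha1 and P4ha2 were higher and Ddit4 was lower in XEN-like cells. The genes with the widest rises, P4ha1 (8.75 and 17.4 CPM in mESCs, 262 and 258 CPM in XEN-like cells) and P4ha2 (2.19 and 6.96 CPM, 412 and 415 CPM), encode collagen prolyl hydroxylases. Summed levels of all 15 were 494 and 490.1 CPM in mESCs, 561 and 735 CPM in ectoderm-like and 1391 and 1427 CPM in XEN-like cells. P4ha1 and P4ha2 made up a large part of the sum in XEN-like cells. The median log2 fold change of the 12 tested targets was 0.95 for XEN-like cells against mESCs and 1.28 between the lineages. It was -0.05 for ectoderm-like cells against mESCs. Over all genes tested these medians were -0.06, -0.06 and 0.05, in the same order. At an unadjusted edgeR p under 0.05, 9 targets differed between the lineages, 8 of them higher in XEN-like cells. Against mESCs, 7 differed for XEN-like cells (5 higher) and 4 for ectoderm-like cells (3 higher).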

How the data were processed

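Bulk RNA-seq and SCRB-seq files hold UMI counts per gene as deposited; for these the authors used BWA 0.7.4 against the RefSeq transcripts of mouse (mm10) and counted unique molecular identifiers. SMART-seq2 files hold RPKM, which the authors made with TopHat and Cuffnorm from cells of at least 200000 reads. The members and all gene lists were chosen with earlier results of these data known. All 34 members are accounted for, and other genes are named only from lists of paralogs, further pathway genes, hypoxia-inducible factor targets, reference genes and cell type markers.

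Groups follow the labels. In bulk, 2 genes with 3 damaged values were left out. The 6 libraries of the replicated groups were fitted together with edgeR 4.0.16 in R 4.3.3 (TMM scaling, filterByExpr, quasi-likelihood test, Benjamini-Hochberg over all genes tested, threshold 0.05). On data simulated for these contrasts, 55.0% to 60.4% of genes changed 4-fold and 8.82% to 12.1% of genes changed 2-fold were found. All other bulk libraries are single: CPM by library total, ratios with exact 95% intervals, and a fold of 2 for genes whose larger count was 50 or more. SCRB-seq wells with over 2000 UMIs were kept and no doublets were called. In SMART-seq2, values written with a decimal comma (under 0.14% of values, all below 1) were read as 0, duplicated gene names were dropped and each cell was scaled to one total, the median over mESCs. Promoters came from RefSeq, with the build printed beside them, and transcripts were aligned with BLAST 2.17.0. Alternatives were DESeq2 1.42.0, other scalings and filters, and leaving out each library. Depth limits low members: 7 had too few counts to be tested. Ratios of 2 libraries cover counting error only.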

Additional observations from a re-analysis of the deposited data

Results flagged for a closer look

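These 5 comparisons stood out because the effect in the 2 lineages, each against the same mESC libraries, differed when tested directly in the edgeR fit (Benjamini-Hochberg adjusted p, 2 libraries per group). Relative to ectoderm-like cells, XEN-like cells had higher Aldoa (log2 difference 1.34, adjusted p = 0.0322), Tpi1 (1.49, adjusted p = 0.0322) and Slc16a1 (1.52, adjusted p = 0.0259), and lower Eno3 (-5.29, adjusted p = 0.00117) and Ldhb (-1.58, adjusted p = 0.0189). In this contrast 12.7% of all genes passed. Only the Eno3 difference held under every alternative run, and the others were lost when certain single sorted libraries were left out. The changes against mESCs were -1.53 and -0.20 for Aldoa, -0.53 and 0.96 for Tpi1, 0.98 and 2.50 for Slc16a1, 3.11 and -2.19 for Eno3 and -2.33 and -3.90 for Ldhb, in ectoderm-like and XEN-like cells. Libraries of sorted 72 h cells, which are not part of that fit, had the same order for each of these genes between PDGFRA+ and PDGFRA- cells, with 1 library for PDGFRA+.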

How the results depend on the processing

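Of 269 alternative values for the 24 calls of members, 0 changed direction and 50 missed the threshold; the calls for Slc2a1, Hk2 and Pfkp in both lineages, for Ldhb against mESCs in both, for both Eno3 calls and for Slc16a1 in XEN-like cells against mESCs held under every alternative run. The members called without a filter on low counts were 16 in ectoderm-like cells, 15 in XEN-like cells and 10 between the lineages (15.5%, 16.5% and 10.1% of all genes). DESeq2 called 10, 7 and 6 (13.5%, 17.3% and 8.71%). Leaving out 1 library gave 5 to 12, 6 to 10 and 1 to 8 (10, 9 and 5 as reported), the fewest without the second mESC library (5, where 13.8% of all genes were called) and, between the lineages, without the first ectoderm-like (1, 3.02%) or second XEN-like library (2, 5.54%), while 8 were called there without the first (14.1%) and 8 without the second mESC library (13.9%). The sorted replicate numbers were also used as a pairing: 12 members were called with the replicate block (9 higher, 3 lower), where 32.1% of all genes were called, and 7 on the same 4 libraries without it (15.4%). With only 2 pairs (correlation 0.33 of the deviations) and no label that says a number marks a shared culture, the numbers were not taken to pair the samples.

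The log2 ratio of the members' total share was -0.45 in ectoderm-like cells against mESCs (-0.80 with TMM scaling, -0.72 to -0.12 leaving out 1 library), 0.00 in XEN-like cells (-0.27 to 0.33) and 0.45 between the lineages (0.29 to 0.60). At 96 h against 0 h it was 0.43 (0.67 without Gapdh, 0.052 with TMM, 0.51 with Gm5506 added after the data were seen, and reversed to -0.17 with the second mESC library as 0 h). At 48 h it was 0.32 (0.43, 0.063, 0.37 and -0.29 in the same order). In SCRB-seq the ratio at 48 h was 0.24, or 0.32 without Gapdh. In SMART-seq2 it was 0.15 (0.060 as deposited, 0.16 without Gapdh, and -0.13, the reverse, as a mean per member of log2 values as deposited). The last alternative changed both the scaling and the averaging.

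Leaving out 1 library, the gain in family share against mESCs ran from 13.5 to 35.9 percentage points for Slc2a1 in ectoderm-like and from 7.04 to 14.4 in XEN-like cells, from 27.7 to 41.6 and from 47.7 to 59.8 for Pfkl, from -32.0 to -24.4 and from -50.3 to -42.6 for Ldhb, and from 26.6 to 49.6 and from 5.51 to 28 for Pdk3. Counts of members past 2-fold became, with TMM, 1 for T3 against T1, 7 between the mESC libraries and 2 between the XEN-like libraries (the last pair of comparisons tried after the data were seen), 14 between the cultures with a minimum of 20 UMIs, 7 at 96 h with the second mESC library, and 6 (20 UMIs) or 8 (second mESC library) at 24 h. The log2 ratio of Gapdh with TMM was -0.46 at 96 h (-0.08 with library totals), -0.86 over the ectoderm-like pair (-0.52 with library totals), and -0.81 over the XEN-like pair (-0.61 with library totals). The causes of these shifts were not tested.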

Other observations

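Paralogs outside the 34 members had patterns of their own. Pgam2, the muscle-type phosphoglycerate mutase, was at 6.12 and 4.35 CPM in mESCs, 29.4 CPM at 24 h, 85.9 CPM at 36 h, 27.2 CPM at 48 h, and in the end 2.56 CPM at 96 h, in whole cultures. In the PDGFRA- fractions at 48 h it was at 72.9, 57.1, 61.1 and 39.1 CPM from Q1 to Q4, and at 72 h it was at 16.3 CPM or less. Pgam1, the general form, was at 156 CPM at 36 h and at 167 and 245 CPM in mESCs. The muscle markers of that library summed to 4.84 CPM.

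Hkdc1, a hexokinase-like gene, was at 0.875 and 0.871 CPM in mESCs, 2.22 and 11 CPM in sorted ectoderm-like, 31 and 33.7 CPM in sorted XEN-like cells and 26.9 CPM in the XEN-like culture. Its log2 fold change in XEN-like cells was 4.91 against mESCs (edgeR adjusted p = 0.00064) and 2.41 against ectoderm-like cells (edgeR adjusted p = 0.0171). Of 3 such paralogs tested out of 16 listed, it was the only one that passed in any contrast. Bnip3, a mitophagy gene and a target of hypoxia-inducible factor, was at 6.12 CPM in the first mESC library and 62.2 CPM in the second. It does not stand for its list, since all 15 listed targets together summed to 494 CPM in the first and 490 CPM in the second.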
